A study of Mus musculus with 4 samples.

Results

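The genes described here encode the receptors by which a fibroblast holds on to matrix and to its neighbours: integrins, cadherins, 3 adhesion receptors of the immunoglobulin family and the hyaluronan receptor Cd44. A probe was included if its gene symbol in the platform annotation is Itga or Itgb with a number, Cdh with a number, or Icam1, Vcam1, Ncam1 or Cd44, and if its detection score exceeded 0.99 on at least 1 array. Of 46632 probes on the array 108 carry such a name, for 45 genes, and 44 probes of 22 genes passed the detection filter. They belong to 6 integrin alpha chains, 6 integrin beta chains, 6 cadherins, 3 immunoglobulin-family receptors and Cd44.

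RNA came from mouse embryonic fibroblasts (MEFs) of strain C57BL/6, described in the labels as a cell line, with 1 Illumina bead array for each of 4 groups. STAT3KO cells, which lack the transcription factor Stat3, were measured after 2 h of IFNa, a type I interferon, at 1000 U/ml and without IFNa. WT cells were measured after the same IFNa treatment and without IFNa. The labels give neither the way Stat3 was deleted nor the number of independent lines, so genotype and cell line cannot be told apart. Levels below are log2 of the authors' normalized intensity, in which background is still present, so a fold change of a dim probe is understated.

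Integrins are pairs of an alpha and a beta chain that bind fibronectin, laminin, collagen or a receptor on another cell, and talin and kindlin connect their tails to actin. Classical cadherins bind the same cadherin on the next cell and are tied to actin through catenins. Icam1 and Vcam1 are ligands for leukocyte integrins and are known to be induced by inflammatory cytokines. Ncam1 binds itself on neighbouring cells, and Cd44 binds the glycosaminoglycan hyaluronan.

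The arrays detected between 16076 and 17524 probes. Stat3 was low in both STAT3KO arrays: the probe ILMN_2698046 of Stat3 stood at 6.78 with IFNa and 6.94 without IFNa in STAT3KO, against 10.39 and 10.13 in WT. Its other probe, ILMN_2589790, was at 6.95 and 6.87 in STAT3KO, against 9.86 and 9.85 in WT, so Stat3 probes were still detected in STAT3KO. The mesenchymal filament gene Vim had a mean STAT3KO minus WT difference of -0.03 and did not pass the test. Of 9 detected fibroblast markers 7 were lower in STAT3KO and none higher (background 17.1% of probes lower, 19.1% higher). Thy1, a fibroblast surface glycoprotein, was at 6.11 with IFNa and 6.07 without IFNa in STAT3KO, where it was not detected, against 13.77 and 13.49 in WT. The summed intensity of the fibroblast markers was 38872 and 34590 in STAT3KO, against 55707 and 61798 in WT. Vim, at 15.18 and 14.99 in STAT3KO and 14.95 and 15.27 in WT, made up most of each sum. The sums therefore understate the fall of the markers that were lower. The median log2 difference of the detected markers was -3.26, and their part in the adhesion results was not tested. In such bulk RNA, fewer cells of a type and less RNA per cell cannot be told apart.

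RefSeq promoter windows, 250 bases before to 50 after a gene's start in GRCm38.p6, were found for 12 of the 22 genes. They were searched on both strands for TTCNNNGAA, GAAANNGAA and TGANTCA. STAT dimers are known to bind TTCNNNGAA, and GAAANNGAA lies within interferon-stimulated response elements. TGANTCA is looser than the AP-1 site, which has C or G at N. The first occurs in 8.3% of all 32851 such windows, the second in 8.56% and the third in 7.81%. Each motif was present in 1 of the 12 genes. Icam1 holds TTCNNNGAA at position -42 from the start. Of the Itga3 windows, the one printed holds GAAANNGAA on the other strand at -99. A second window at a downstream start holds TGANTCA, as TGAATCA. The windows of Itga11, Cd44, Itga5 and Itgb7 hold none of these letters. The 4 windows below belong to Icam1, the single gene with the STAT letters, to Itga3, which had the largest rise among the members in STAT3KO, and to Itga11 and Cd44, which were lower there. Capitals mark the motif. The windows lie at chr9:21015690-21015989 (plus strand) for Icam1, chr11:95076665-95076964 (minus strand) for Itga3, chr9:62677605-62677904 (plus strand) for Itga11 and chr2:102901616-102901915 (minus strand) for Cd44, and each is written 5′ to 3′ along its gene.
Icam1: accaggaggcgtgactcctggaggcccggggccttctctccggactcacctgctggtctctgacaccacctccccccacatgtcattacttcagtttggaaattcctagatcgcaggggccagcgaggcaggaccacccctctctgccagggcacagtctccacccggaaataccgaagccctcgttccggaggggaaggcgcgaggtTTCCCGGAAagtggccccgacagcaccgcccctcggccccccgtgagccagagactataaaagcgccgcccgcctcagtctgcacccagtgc
Itga3: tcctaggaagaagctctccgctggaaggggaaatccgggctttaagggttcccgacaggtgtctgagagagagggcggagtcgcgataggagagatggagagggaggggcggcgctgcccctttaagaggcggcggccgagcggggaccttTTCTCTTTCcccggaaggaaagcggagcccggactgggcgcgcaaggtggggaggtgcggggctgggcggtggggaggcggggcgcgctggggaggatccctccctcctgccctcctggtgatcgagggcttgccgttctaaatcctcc
Itga11: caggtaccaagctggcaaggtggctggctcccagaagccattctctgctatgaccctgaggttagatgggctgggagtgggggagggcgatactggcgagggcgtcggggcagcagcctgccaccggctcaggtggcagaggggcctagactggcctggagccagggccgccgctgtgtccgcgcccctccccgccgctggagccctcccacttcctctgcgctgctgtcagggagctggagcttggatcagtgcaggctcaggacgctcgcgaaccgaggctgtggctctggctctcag
Cd44: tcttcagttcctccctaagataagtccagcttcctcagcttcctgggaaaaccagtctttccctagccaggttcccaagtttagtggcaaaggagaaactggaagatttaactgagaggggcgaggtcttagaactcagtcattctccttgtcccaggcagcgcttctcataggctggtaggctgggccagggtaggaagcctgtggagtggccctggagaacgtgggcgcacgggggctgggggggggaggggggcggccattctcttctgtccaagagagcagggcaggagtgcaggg

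The main contrast in these genes was between the genotypes. By the probe with the highest mean level of each gene, 9 of the 22 genes were lower in STAT3KO, 4 were higher and 9 did not pass the test (limma, genotype plus treatment, Benjamini-Hochberg over 19656 probes). The test rests on 2 arrays a genotype, 1 in each treatment, with 1 residual degree of freedom. limma estimated infinite prior degrees of freedom, so each p-value takes its error from probes of like brightness alone and holds no spread between replicate cultures. A second fit of genotype alone, without the treatment term, had finite prior degrees of freedom. It gave larger adjusted p-values for the 13 called genes, and all 13 passed it too. It was not stricter for every probe: it called 17 member probes lower in STAT3KO, against 15, and 7 higher in both fits. Scaling of the deposited intensities to the 75th percentile ended 8 of the 13 calls, leaving 3 genes lower and 2 higher (limma), and the cause was not tested. The adjusted p under it is given beside each lost call. Counted by probe, 15 of 44 were lower, or 34.1%, against a background of 17.1% of all probes tested, and 7 were higher, or 15.9%, against 19.1%. A probe detected on both WT arrays and on neither STAT3KO array had to be lower in STAT3KO, which applied to 4 of the 44. The reverse applied to 1 probe, that of Icam1, which had to be higher in STAT3KO. Among the 23 member probes detected on all 4 arrays 8 were lower, against a background of 19.1%, and 6 were higher, against 21.5%. At 2-fold or more in both treatments 7 member probes of 5 genes were lower (15.9%, background 3.58%) and 2 were higher (4.55%, background 3.41%). Between the arrays with IFNa, 2 member probes were at least 2-fold higher in STAT3KO than in WT (background 4.49%) and 9 lower (background 4.92%). Between the arrays without IFNa, 4 were higher in STAT3KO (background 5.06%) and 7 lower (background 4.53%). With background correction the lower counts were 15 with IFNa and 13 without, and the shares of all probes under it were not counted. The arrays of the genotypes did not overlap for 7 member probes higher in STAT3KO (15.9%, background 33.8%) and 24 lower (54.5%, background 30.8%). Probes of 1 gene share their transcript and are not separate results.

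**Figure D1:**
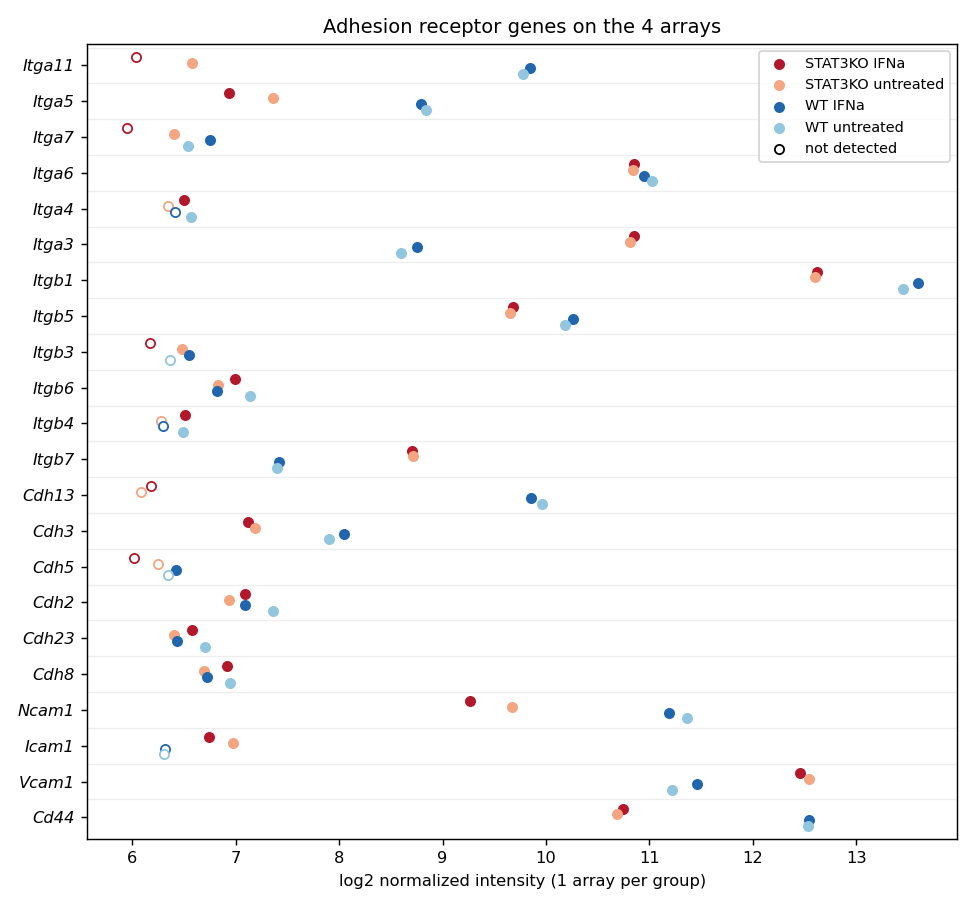
Log2 normalized intensity (x axis) of each of the 22 genes (y axis, grouped as integrin alpha, integrin beta, cadherin, immunoglobulin family and Cd44) on the 4 arrays, with 1 point per array and open points where the probe was not detected. Itga11 and Cdh13 lie between 6.04 and 6.58 in STAT3KO, against 9.78 to 9.96 in WT, while Itga3 lies above 10.8 in STAT3KO, against 8.75 and 8.60 in WT.

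The integrin alpha chains moved in opposite directions. Itga11, which pairs with Itgb1 as a collagen receptor of fibroblasts, stood at 6.04 with IFNa and 6.58 without IFNa in STAT3KO, against 9.85 and 9.78 in WT. It was not detected in STAT3KO with IFNa. It was therefore at least 10.5-fold lower with IFNa and 9.17-fold lower without it, and the mean log2 difference was -3.50 ± 0.14 (limma SE, n = 2 arrays each, adjusted p = 6.625e-138, and 1.87e-07 in limma without the treatment term). With background correction the mean difference was -5.35. Itga5, the alpha chain of the main fibronectin receptor, was at 6.94 and 7.36 in STAT3KO, against 8.79 and 8.84 in WT, with and without IFNa. Its mean difference was -1.66 ± 0.14 (limma adjusted p = 2.523e-31), or -2.34 with background correction. Both chains were lower on each STAT3KO array than on either WT array.

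Itga3, which forms a laminin receptor with Itgb1, rose in STAT3KO. Its levels were 10.86 with IFNa and 10.81 without IFNa in STAT3KO, against 8.75 and 8.60 in WT. These were 4.29-fold and 4.64-fold differences, with a mean log2 difference of 2.16 ± 0.13 (limma SE, adjusted p = 3.337e-62). Under 75th percentile scaling the Itga3 call was lost (2.22, limma adjusted p = 0.0677). The groups did not overlap, and the arrays of 1 genotype lay within 0.16 of each other.

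Itga6, also a laminin receptor chain, depended on the probe. The probe with the highest mean level was at 10.85 and 10.84 in STAT3KO, against 10.95 and 11.02 in WT, a mean difference of -0.14 (limma adjusted p = 0.489, 95% interval from -0.40 to 0.12). A second probe of Itga6, detected on all 4 arrays, was at 8.54 and 8.64 in STAT3KO, against 8.01 and 8.16 in WT, and passed the test with a mean difference of 0.50 (limma adjusted p = 0.000896). Of the 4 member probes of Itga6, 3 had a negative difference. The dimmer probes ILMN_1223670 and ILMN_1236600, near background, gave -0.07 and -0.38 and did not pass (limma adjusted p = 0.812 and 0.0536). Whether the probes read different transcripts was not tested. Itga7, a laminin receptor chain of muscle, was near background and its mean difference of -0.47 (limma adjusted p = 0.0117, and 0.104 with 75th percentile scaling) came mostly from the arrays with IFNa, where it was 0.81 lower and not detected in STAT3KO, while it was 0.13 lower without IFNa. The call was lost when either array with IFNa was left out of the fit (-0.36 without WT IFNa and -0.24 without STAT3KO IFNa). Itga4, whose product binds Vcam1 and fibronectin, lay between 6.35 and 6.57 and was detected on 2 arrays.

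Among the beta chains, Itgb1, the shared partner of Itga3, Itga5, Itga6, Itga7 and Itga11, was at 12.62 with IFNa and 12.60 without IFNa in STAT3KO, against 13.59 and 13.45 in WT. This was 1.96-fold and 1.79-fold lower, with a mean log2 difference of -0.91 ± 0.17 (limma SE, adjusted p = 1.182e-06), a call lost with 75th percentile scaling (limma adjusted p = 0.405). Both WT arrays lay above both STAT3KO arrays. The partner chains thus moved both ways while Itgb1 itself was lower. Its second probe was near background and gave -0.25 without passing the test. Itgb5, which pairs with Itgav as a vitronectin receptor, had a mean difference of -0.56 (limma adjusted p = 6.495e-05, and 0.976 with 75th percentile scaling), and a second probe of Itgb5 with levels between 9.18 and 9.59 gave -0.25 without passing (limma adjusted p = 0.115).

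Itgb7, known from lymphocytes as the partner of Itga4 and Itgae, was the one beta chain that rose. It was at 8.70 with IFNa and 8.71 without IFNa in STAT3KO, against 7.42 and 7.40 in WT. The differences were 2.43-fold and 2.48-fold, with a mean log2 difference of 1.30 ± 0.14 (limma SE, adjusted p = 1.188e-19). Itga4 and Itgae, the alpha chains it is known to pair with, had mean differences of -0.07 and -0.11 and did not pass. Itgb2, a leukocyte chain, was not detected on any array, nor were the other 4 blood cell markers measured, Ptprc, Adgre1, Itgam and Lyz2. Itgb3, Itgb4 and Itgb6 lay between 6.17 and 7.14 and did not pass.

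**Figure D2:**
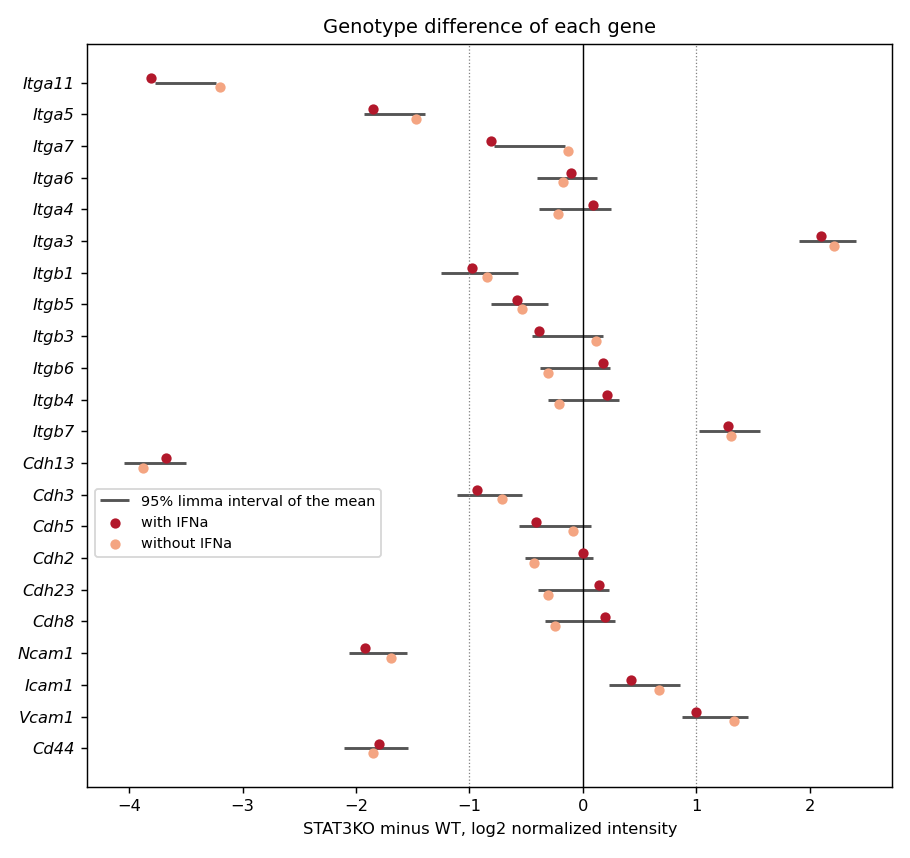
STAT3KO minus WT in log2 normalized intensity (x axis) for each gene (y axis), with 1 point for the arrays with IFNa, 1 point for those without IFNa and a bar for the 95% limma interval of the mean. Dotted lines mark 2-fold; Itga11, Itga5, Cdh13, Ncam1 and Cd44 lie beyond it on the lower side and Itga3 and Itgb7 on the higher side in both treatments.

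Of the 6 cadherins detected, 2 were lower in STAT3KO and none was higher (background 17.1% of probes lower, 19.1% higher). With 6 genes this count is a description only. Cdh13 (T-cadherin), an atypical cadherin held in the membrane by a lipid anchor and without a cytoplasmic tail, was at 6.18 with IFNa and 6.08 without IFNa in STAT3KO, against 9.86 and 9.96 in WT. It was not detected in STAT3KO, so it was at least 10.5-fold lower with IFNa and at least 11.9-fold lower without IFNa. The fitted mean log2 difference of Cdh13 was -3.78 ± 0.14 (limma SE, adjusted p = 1.752e-158, and 1.045e-08 in limma without the treatment term), or -5.95 with background correction, and neither is a bound.

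All 3 member probes of Cdh13 were detected on both WT arrays and on neither STAT3KO array. Their fitted differences ran from -3.78 to -0.58, and all 3 passed the test. The probes stood at 9.86, 7.64 and 6.47 in WT with IFNa, and between 5.90 and 6.18 in STAT3KO.

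Cdh3 (P-cadherin), a classical cadherin known mainly from epithelia, was 1.91-fold lower with IFNa and 1.64-fold lower without IFNa in STAT3KO (mean log2 difference -0.82 ± 0.15, limma adjusted p = 1.282e-07, and 0.0679 with 75th percentile scaling). Its second probe gave -0.20 and did not pass. Cdh2 (N-cadherin), the classical cadherin of mesenchymal cells, was at 7.09 and 6.93 in STAT3KO, against 7.09 and 7.36 in WT, with and without IFNa. The difference of Cdh2 was -0.21 with a 95% interval from -0.51 to 0.09 (limma adjusted p = 0.311). Cdh8, Cdh23 and the endothelial cadherin Cdh5 lay between 6.02 and 6.94 and did not pass. Of the cadherins named in the platform annotation, 16 were not detected on any array, among them the epithelial Cdh1 and Cdh11, a cadherin known from mesenchymal cells, whose 3 probes reached a detection score of at most 0.836.

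The immunoglobulin-family receptors split. Ncam1 was at 9.27 with IFNa and 9.67 without IFNa in STAT3KO, against 11.19 and 11.36 in WT. This was 3.78-fold and 3.24-fold lower, with a mean log2 difference of -1.81 ± 0.13 (limma SE, adjusted p = 2.644e-42). With 75th percentile scaling the Ncam1 call was lost (-1.78, limma adjusted p = 0.250). All 4 of its member probes were lower and passed the test, with differences from -1.81 to -0.49.

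Vcam1 rose in STAT3KO. It was at 12.46 with IFNa and 12.54 without IFNa in STAT3KO, against 11.46 and 11.21 in WT, or 2.00-fold and 2.51-fold higher (mean log2 difference 1.16 ± 0.15, limma SE, adjusted p = 5.15e-14). The Vcam1 call was lost under 75th percentile scaling (1.05, limma adjusted p = 0.595). Its other probes were higher by 0.90 and 0.51 and passed too. Icam1 was low throughout: it was at 6.74 with IFNa and 6.97 without IFNa in STAT3KO, where it was detected, against 6.31 on both WT arrays, where it was not. It was at least 1.25-fold higher with IFNa and at least 1.43-fold higher without IFNa. The fitted difference of Icam1 was 0.55 ± 0.16 (limma SE, adjusted p = 0.00245), or 1.42 with background correction. Because Icam1 passed the detection filter through the STAT3KO arrays alone, its direction was fixed in advance. Icam1 is the gene whose printed window holds the STAT letters in capitals, a description of the sequence and not of binding.

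Cd44 was at 10.74 with IFNa and 10.68 without IFNa in STAT3KO, against 12.54 and 12.53 in WT. It was 3.49-fold and 3.60-fold lower, with a mean log2 difference of -1.83 ± 0.14 (limma SE, adjusted p = 1.271e-35). The call of Cd44 was lost under 75th percentile scaling (-1.77, limma adjusted p = 0.162). A second probe of Cd44 with levels between 9.42 and 11.21 gave -1.75. The other 3 probes of Cd44 stayed between 6.13 and 6.73 on every array and did not pass.

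**Figure D3:**
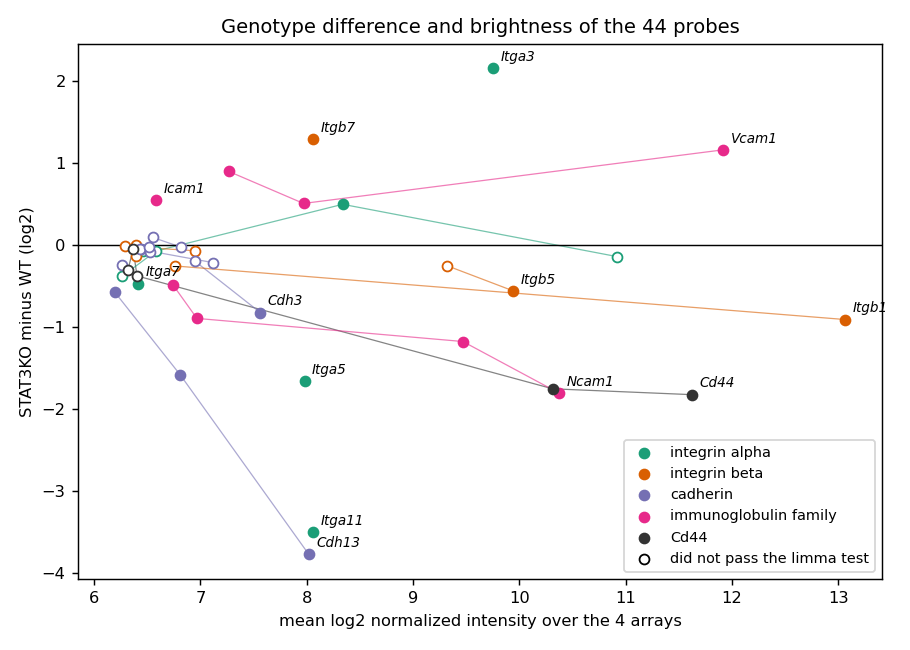
STAT3KO minus WT in log2 (y axis) against the mean log2 normalized intensity over the 4 arrays (x axis) for each of the 44 probes, coloured by family, with lines joining probes of 1 gene and open points where the limma test was not passed. Of the 14 probes with a mean of at least 8, 12 passed, and of the 30 dimmer ones 10 did. All probes were not counted at this split of brightness, so these counts are not a result about these genes.

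Probes of 1 gene did not always give the same call. Of the 12 genes with more than 1 member probe, Cdh13, Ncam1 and Vcam1 had every probe pass in the same direction. For Cdh13 that direction was fixed by the detection filter. Cd44, Cdh3, Itgb1 and Itgb5 had probes that agreed in direction but not in call. The 8 genes that did not pass other than Itga6 lay between 6.02 and 7.36 on every array, and their 95% intervals reached from -0.57 to 0.32.

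The second question was whether 2 h of IFNa changed these receptors. For the mean IFNa response, limma called none of the 44 probes (smallest adjusted p = 0.951), against a background of 0.87% of probes higher and 0.224% lower. At an unadjusted limma p under 0.05 there was 1 member probe, of Ncam1, against a background of 3.77%. No member probe reached 2-fold in STAT3KO, where 0.56% of all probes were higher and 0.022% lower, or in WT, where 0.306% were higher and 0.0283% lower. With background correction 1 member probe was past 2-fold lower with IFNa in STAT3KO, and the share of all probes under it was not counted. The same arrays showed a response elsewhere: Irgm1, an interferon-inducible GTPase, was 3.70 ± 0.13 higher (log2, limma SE, adjusted p = 1.373e-178).

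The responses of the members lay between -0.54 and 0.25 in STAT3KO and between -0.32 and 0.30 in WT on the log2 scale. The 95% limma intervals of the mean responses reached from -0.54 to 0.43. They hold no spread between replicate cultures and are not a limit of detection, so small changes were not excluded. Ncam1 was 0.40 lower with IFNa in STAT3KO and 0.18 lower in WT on its main probe, a mean of -0.29 ± 0.13 (limma SE, adjusted p = 0.951). Vcam1, which inflammatory cytokines are known to induce, was 0.09 lower with IFNa in STAT3KO and 0.25 higher in WT (mean 0.08, limma adjusted p = 0.99996). Its other probes were 0.31 and 0.50 lower in STAT3KO and 0.03 and 0.30 higher in WT. Icam1 was 0.24 lower with IFNa in STAT3KO and was not detected in WT.

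The difference between the responses could not be tested, since it leaves no residual degree of freedom. It ran from -0.80 for a Vcam1 probe to 0.51 for a Cdh8 probe, and none of the 44 was past 2-fold, against a background of 0.555% towards STAT3KO and 0.148% towards WT. This count depended on the processing. With background correction 5 member probes were past 2-fold towards STAT3KO and 4 towards WT. With 75th percentile scaling 5 were past it towards WT. The shares of all probes were not counted under either, so these counts are not a result about the members. The median over the members was -0.07, and over all probes -0.05. Itga11 and Itga7 had differences of -0.61 and -0.67, and neither was detected in STAT3KO with IFNa.

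**Figure D4:**
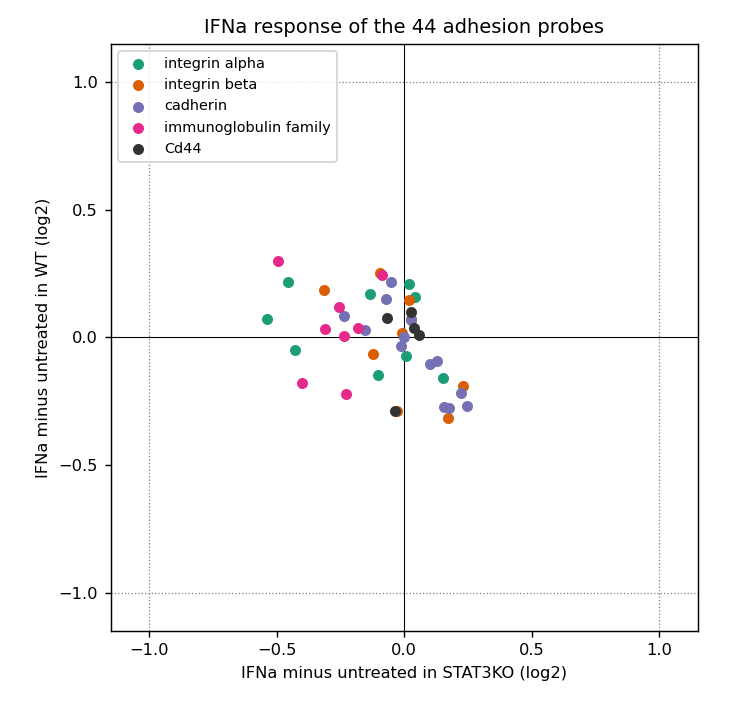
IFNa minus untreated in STAT3KO (x axis) against IFNa minus untreated in WT (y axis), in log2 normalized intensity, for the 44 probes coloured by family. Dotted lines mark 2-fold, and all points lie inside them, from -0.54 to 0.25 in STAT3KO and from -0.32 to 0.30 in WT.

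The proteins that integrins and cadherins work with were described from lists chosen by function. Of 27 detected genes that link integrins to actin and signalling, 6 were higher in STAT3KO, 9 lower and 12 did not pass (limma over all probes; background 19.1% higher and 17.1% lower). The median log2 difference was -0.16, against 0.00 over all probes. Tns3, a tensin that binds integrin beta tails, was at 8.95 and 8.98 in STAT3KO, against 11.47 and 11.38 in WT. Fermt2, the kindlin of fibroblasts, had a difference of -1.40 and Actn1, an actin cross-linker of focal adhesions, one of -1.48. In the other direction Cd151, a tetraspanin known to bind Itga3 and Itga6, was at 11.59 and 11.74 in STAT3KO, against 10.38 and 10.19 in WT (difference 1.38). Kank1, a talin-binding adaptor, had a difference of 1.43. Tln1, the talin of fibroblasts, was 0.24 and did not pass (limma adjusted p = 0.146).

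Of 10 detected catenin and nectin genes, 2 were higher, 5 lower and 3 did not pass (background 19.1% higher, 17.1% lower). Jup (plakoglobin), a catenin shared by adherens junctions and desmosomes, was at 8.67 and 8.96 in STAT3KO, against 7.18 and 7.05 in WT, a difference of 1.70 (limma adjusted p = 1.303e-32). Ctnnb1 and Ctnnd1, which bind classical cadherin tails, had differences of 0.02 and 0.11 and did not pass. Nectin3 and Nectin2, immunoglobulin-like adhesion molecules, were at -0.58 and -0.39 and passed.

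Of 20 detected ligand genes, 12 were lower in STAT3KO, 3 were higher and 5 did not pass (background 17.1% lower, 19.1% higher). Their median log2 difference was -0.62, against 0.00 over all probes. The list and the fibroblast markers share Col1a1 and Col1a2. Col1a1 and Col1a2, chains of the collagen bound by Itga11, had fitted differences of -3.53 and -4.84, and Col1a2 was not detected in STAT3KO with IFNa, so its value is not a measured fold. Fn1, the ligand of Itga5, was -1.04, and Has2, the synthase of the Cd44 ligand hyaluronan, was -2.70. Lama5, a chain of laminins bound by Itga3 and Itga6, was at 8.67 and 8.80 in STAT3KO, against 6.41 and 6.25 in WT, where it was not detected (fitted difference 2.40, limma adjusted p = 3.467e-58). Lamb1 and Lamb2, laminin beta chains, had differences of -1.01 and -0.55, so the laminin chains went both ways. Tnc, the matrix protein tenascin, was -2.94.

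Epithelial-mesenchymal regulators moved both ways. Of 9 detected 3 were lower in STAT3KO, namely Twist2 (-3.92), Zeb2 (-2.26) and Snai2 (-2.00). The 2 higher were Zeb1 (0.86) and Grhl2 (0.42, detected on 1 array). For these and the marker lists below, the background was 17.1% of probes lower and 19.1% higher. Twist1 and Snai1 did not pass. Of 9 epithelial markers on the array 4 were detected, none passed as higher, and Krt19 was lower at -0.64, while Epcam, Cldn3, Cldn7, Ocln and Cdh1 were not detected. The summed intensity of the epithelial markers was 943 and 1067 in STAT3KO, against 1058 and 1340 in WT, with and without IFNa. Endothelial markers had 1 of 3 detected genes higher (Emcn, 0.42), with Pecam1, Tek and Tie1 not detected. Their summed intensity was 469.8 and 522.5 in STAT3KO, against 491.9 and 469.6 in WT. None of the measured markers of neural crest and glia (3) or skeletal muscle (5) was detected. In the linkage, catenin, ligand and epithelial-mesenchymal lists, limma called no gene for IFNa.

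**Figure D5:**
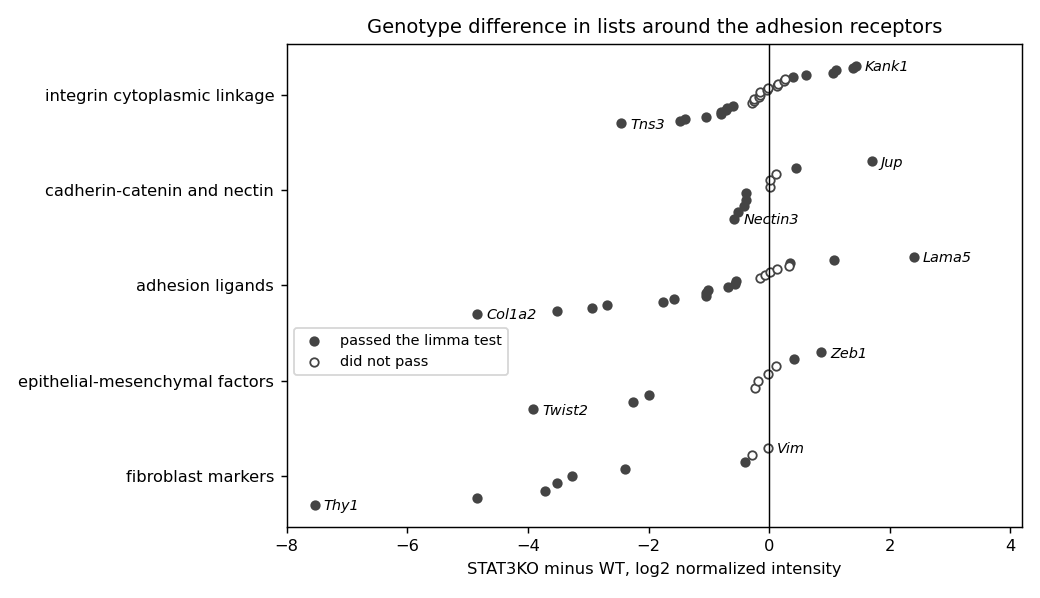
STAT3KO minus WT in log2 normalized intensity (x axis) for each detected gene of 5 lists (y axis), filled where the limma test was passed, with the genes at both ends of each list named. The fitted values include genes not detected on some arrays and are then not measured folds. Among these genes are Thy1 (-7.54, detected on no STAT3KO array), Col1a2 (-4.84, not detected in STAT3KO with IFNa), Lama5 (2.40, detected on no WT array) and Postn (-1.58, detected on 2 arrays). Jup, detected on all 4 arrays, lies at 1.70.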

How the data were processed

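Total RNA of 4 MEF samples was measured on Illumina mouse bead arrays, 1 per group, with BeadStudio 3.2.3 per the submitters' processing notes. Every probe has a linear intensity and a detection score, both deposited by the authors. By the header of that file, the WT untreated column already held normalized intensity, while the other 3 were not normalized (per the file headers). The authors also deposited a table of normalized intensity (median 75.0 on every array, smallest value 39.9). Their method was not given in the sources used here. Log2 of that table was analysed, with no pseudocount.

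A probe was detected at a score above 0.99. Of 46632 probes 29976 had 1 gene symbol, 10 several and 16646 none, and 29921 were updated by Entrez ID with RefSeq symbols of GRCm38.p6. The 19656 probes detected on at least 1 array were fitted with limma 3.58.1 in R 4.3.3 (genotype plus treatment, eBayes with intensity trend, Benjamini-Hochberg). The code of the fit was run on simulated data with independent noise set by brightness alone. Those data held no spread between replicate cultures, so they cannot show whether the p-values hold for these arrays. A fold is written "at least" where the dimmer array did not detect the probe: the brighter value over the higher of the dim value and the lowest detected value on that array. Differences of 2 arrays were counted at 2-fold without a test. The number of arrays limits the precision.

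Members and lists were chosen with earlier results of these data known. Values on all arrays are given for genes past 2-fold in both treatments with a limma call, the immunoglobulin-family genes, Cd44 and the probe with the highest level of each family. Background-corrected values are from normexp (offset 16) and quantile normalization of the deposited intensity. The quantile and 75th percentile alternatives also start from that intensity. It mixes the WT untreated array, already normalized, with arrays that were not, and the effect of this was not tested. The closing section gives the alternatives.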

Additional observations from a re-analysis of the deposited data

Results flagged for a closer look

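In 8 of the 14 genes detected on all 4 arrays the IFNa response had opposite signs in the 2 genotypes. With 1 array a group the difference was not tested. The share of all probes with opposite signs was not counted, so the 8 are not a result about these genes. The difference of responses (STAT3KO minus WT, log2) was 0.43 for Cdh2, 0.45 for Cdh23, 0.44 for Cdh8 and 0.49 for Itgb6, with small rises in STAT3KO and small falls in WT. These 4 probes lay between 6.40 and 7.36 on every array. It was -0.33 for Vcam1 (-0.09 in STAT3KO and 0.25 in WT), -0.22 for Cdh3, 0.078 for Itga6 and -0.025 for Itgb7. The responses of Itga6 and Itgb7 were near 0, between -0.071 and 0.018.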

How the results depend on the processing

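The 4 genes higher and 9 lower in STAT3KO kept their direction under every alternative run on them (background correction, quantile or 75th percentile scaling, cyclic loess, pseudocount 16, no filter, no intensity trend, mean of probes, genotype only). Restriction to probes detected on all arrays left out Cdh13, Itga11, Icam1 and Itga7, and the other 3 higher and 6 lower kept theirs. The direction of Cdh13 and Icam1, each detected in a single genotype, was fixed by the detection filter. Scaling of the deposited intensities to the 75th percentile ended 8 gene calls, leaving 2 genes and 3 probes higher and 3 genes and 6 probes lower. It also put 5 differences of responses past 2-fold towards WT. The cause was not tested. Background correction moved counts of probes past 2-fold lower in STAT3KO to 15 with IFNa and 13 without IFNa, against 9 and 7. It put 1 probe past 2-fold lower with IFNa in STAT3KO, and 5 and 4 differences of responses past 2-fold towards STAT3KO and WT. For 75th percentile scaling and background correction the shares of all probes were not counted beside these numbers. Restriction to probes detected on all 4 arrays, which tests fewer probes, left 8 lower by genotype, and 5 and 4 past 2-fold lower with and without IFNa. Without the treatment term each array was left out in turn, and of the 13 genotype calls only that of Itga7 was lost, in 2 of the 4 fits. The additive fit has no residual degrees of freedom with 3 arrays. No paired analysis was possible because each group is 1 array and the labels give no replicate numbers. No member passed the test of the IFNa response under any alternative run.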
